A study of Arabidopsis thaliana with 8 samples.

Results

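The drought response of the dor mutant was measured as the difference between dor drought and dor control rosette leaves, on 4 of the 8 Affymetrix ATH1 arrays of a study of Arabidopsis thaliana. The dor plants carry a SALK T-DNA insertion in the Columbia background. The dor drought plants had 24 days of normal watering and then 10 days without irrigation (2 arrays), and the dor control plants had 34 days of normal watering (2 arrays). Wild type Columbia plants were given the same drought (2 arrays) or the same watering (2 arrays). Their source label calls them a mutant, while their title and genotype give wild type Columbia, which was used. All plants grew in soil in long days, and leaves of all groups came from the rosette. The labels call the 2 arrays of a group biological replicates and do not say how many plants each holds. The mutant is 1 insertion line, so effects of the insertion and of other differences in that line cannot be told apart. The number of arrays limits the precision of every value.

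DOR codes for an F-box protein, the substrate-binding part of a ubiquitin ligase, and is known as a repressor of drought tolerance that acts in guard cells and dampens abscisic acid (ABA) signalling. When soil dries, ABA closes stomata and switches on genes for dehydrins and late embryogenesis abundant (LEA) proteins, which protect membranes and proteins as cells lose water. Leaf growth and the synthesis of photosynthetic proteins are turned down in drying leaves, and older leaves can enter senescence.

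The probe set of DOR (AT2G31470) read 2.3 and 3.7 on the dor drought arrays and 3.7 and 21.4 on the dor control arrays. It read 3.1 and 5.2 in wild type drought and 7.0 and 5.0 in wild type control. All 8 values were below the 40th percentile of the array they came from, so this gene could not check the genotype labels. Markers of other tissues were few. The seed oil body gene OLEO3 read 72.4 and 42.6 in dor drought and 31.0 and 46.0 in dor control. The root hair expansin EXPA7 read 54.5 and 30.4 in dor drought and 43.1 and 48.2 in dor control. EXPA18, the other root hair expansin, read 4.4 and 10.8 in dor drought and 94.5 and 43.8 in dor control, and was above the 40th percentile only on dor control replicate 1. EXPA7 was under the percentile on all 8 arrays, and OLEO3 and EXPA18 on 7 of 8 each. The guard cell genes CHX20, an ion exchanger, and FMA, a transcription factor, were well measured and differed by -0.17 and -0.41. In bulk leaf RNA, fewer cells of a type and less RNA per cell cannot be told apart.

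Values below are deposited linear signals, and differences are log2 drought minus control. A probe set is called where limma gave an adjusted p under 0.05 over 15523 tested probe sets. The 40th percentile of the signals ran from 61.5 to 90.8 on the dor arrays. Differences of genes with lower signals also depend on background, so for a single gene whose dor difference rests on such a signal a second value is given, with the signal raised to that percentile. It is named the raised difference and has no test.

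Drought raised 49 probe sets in dor and lowered 39, which is 0.567% of those tested (0.316% higher and 0.251% lower). Of these, 26 that rose and 20 that fell stand for 1 named gene. The sizes ran from 2.88 to 10.57 log2 units among the rises and from 3.68 to 10.16 among the falls. Of the 49 rises 22 were under the 40th percentile on both dor control arrays, and of the 39 falls 27 were under it on both dor drought arrays. Of the 88 called probe sets 36 rises and 34 falls were larger in replicate 1, and 0 changed sign between the replicate numbers. Over all tested probe sets 10345 of 15523 had the same sign in both replicates, and the median difference was 0.17.

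The response was wider in replicate 1 than in replicate 2. The standard deviation of the differences over tested probe sets was 2.31 in replicate 1 and 1.3 in replicate 2, and 11698 of 15523 were larger in size in replicate 1. Across probe sets, which are not independent and share the same 4 arrays, the 2 replicates correlated at r = 0.494. At least 1 log2 unit of raised difference was reached by 52.7% of probe sets in replicate 1 and by 20.9% in replicate 2. In both replicates together, 1102 were higher by at least that much and 1047 lower.

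**Figure D1:**
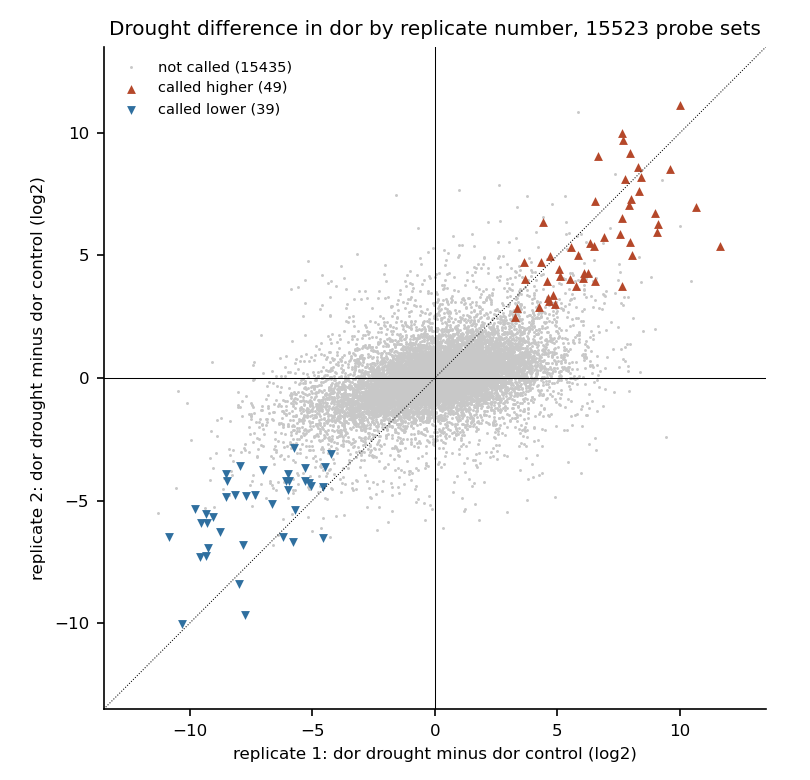
Log2 difference of dor drought minus dor control in replicate 1 (x axis) and replicate 2 (y axis), 1 point per tested probe set; triangles mark the 49 called higher and the 39 called lower, and the dotted line marks equal differences. All 88 called probe sets have the same sign in both replicates, and the cloud is wider along the axis of replicate 1.

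The arrays of the 2 replicate numbers also differed in technical measures. The geometric mean of 12 bacterial spike-in probe sets was 337 and 104 on the dor drought arrays and 447 and 58.8 on the dor control arrays, so it was higher in replicate 1 in both groups. Actin signal of the 5 prime over the 3 prime probe set, a ratio that falls with RNA breakdown or short labelling, stood at 0.370 and 0.382 on the dor drought arrays. It was 0.245 and 0.366 on the dor control arrays, lowest in replicate 1. Ubiquitin signal of the middle over the 3 prime probe set was 0.430 and 0.437 in dor drought and 0.174 and 0.331 in dor control. The labels of dor replicate 1 name a reagent in the RNA extraction that those of dor replicate 2 do not. Within dor alone this wording and the replicate number cannot be told apart. In wild type the labels of replicate 2 name the reagent and those of replicate 1 do not. There the spike-in mean was 339 and 26.1 in drought and 436 and 16.3 in control, again higher in replicate 1. The wild type actin ratio was 0.389 and 0.497 in drought and 0.229 and 0.575 in control, lower in replicate 1. With the extraction wording as a block limma made 35 calls, and 29 of the 46 called genes with a name lost their call. The part of the spike-in and 3 prime ratios in the results was not tested. limma made 0 calls without dor drought replicate 1, where 951 probe sets had an unadjusted p under 0.05, and 5 calls without dor control replicate 1. Of the 46 named genes that were called, 3 kept their call without dor control replicate 1. These were AT5G39520, AT3G53980 and AT5G03350, each at an adjusted p of 0.0433, and none of the 46 was called without dor drought replicate 1.

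Of the 26 rises that stand for 1 named gene, 3 were on the list of dehydrin, LEA and related genes. The unnamed ones among the 49 rises could not be placed on a list. LTI30 (AT3G50970), a dehydrin also named XERO2, read 45119 and 17566 in dor drought and 243 and 303 in dor control. Both drought arrays were far above both control arrays, and the rise was 6.70 ± 0.73 (SE of the limma fit, adjusted p = 0.0139). AT3G17520, a locus on the LEA list, read 7590 and 4499 in dor drought and 7.4 and 2.0 in dor control. It rose by 10.57 ± 1.28 (adjusted p = 0.0193), with a raised difference of 6.31 because both control signals were at background. AT1G16850, on the same list, read 10724 and 2608 in dor drought and 52.6 and 3.1 in dor control, with a raised difference of 6.16 (adjusted p = 0.0420).

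AT4G33150, the lysine-breakdown enzyme LKR/SDH, read 16001 and 9936 in dor drought and 30.2 and 162 in dor control. It rose by 7.49 ± 0.85 (adjusted p = 0.0160), with a raised difference of 6.95. SAG29 (AT5G13170), also SWEET15, a sugar transporter of ageing leaves, read 1742 and 5630 in dor drought and 17.2 and 10.6 in dor control. It rose by 7.86 ± 1.11 (adjusted p = 0.0285), and its raised difference was 5.41. SAG29 was higher on the drought array of replicate 2 than on that of replicate 1. AMY1 (AT4G25000), an alpha-amylase that cuts starch, read 2012 and 3681 in dor drought and 76.5 and 118 in dor control. Its difference was 4.84 (adjusted p = 0.0427). OCT1 (AT1G73220), a transporter of carnitine and organic cations, read 555 and 1436 in dor drought and 2.2 and 2.5 in dor control, and its raised difference was 3.6 (adjusted p = 0.0274).

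Several of the strongest rises are known here by locus alone. AT5G39520 had the smallest p, with 15559 and 6062 in dor drought against 20 and 16.6 in dor control. It rose by 9.06 ± 0.67 (adjusted p = 0.00500), and its raised difference was 7.04. AT1G05340 read 42048 and 9534 in dor drought and 163 and 60.2 in dor control, with the largest raised difference among rises of 1 named gene, 7.41. AT4G20320 read 12141 and 2377 in dor drought and 3.8 and 57.5 in dor control. Its 2 replicates gave 11.64 and 5.37, since in replicate 1 the control signal was lower and the drought signal higher. The raised values were 7.56 and 4.81. AT2G41190 was above the 40th percentile on all 4 dor arrays, with 13094 and 7922 in dor drought and 229 and 244 in dor control. Its rise of 5.43 ± 0.65 (adjusted p = 0.0188) therefore does not rest on background signals.

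AT3G53980 read 9659 and 4690 in dor drought and 103 and 31.6 in dor control, a raised difference of 6.17 (adjusted p = 0.0139). AT2G21820 read 7425 and 3442 in dor drought and 62.9 and 63.1 in dor control, near the 40th percentile, a rise of 6.33 ± 0.61 and a raised difference of 6.10. AT3G13672, for which the gene table gives the synonym SINA2, read 5198 and 4442 in dor drought and 65.4 and 97.3 in dor control. It rose by 5.91 ± 0.70 (adjusted p = 0.0188). The smallest called rise with a named gene was that of AT1G64360, with 13580 and 12355 in dor drought and 1394 and 2212 in dor control. Its adjusted p of 0.04996 was just inside the threshold, and its call was lost in 16 of 21 other settings.

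Most falls took transcripts that were well measured in watered leaves down to background. AT5G03350 read 29 and 17 in dor drought and 6157 and 13792 in dor control. It fell by 8.70 ± 0.69 on the log2 scale (adjusted p = 0.00500), with a raised difference of -6.95. It is the 1 called member of 2 tested on the salicylate and pathogen defence list. AT3G16670 read 36.4 and 41.5 in dor drought and 15721 and 3241 in dor control, and AT3G05730 read 24.3 and 70.3 in dor drought and 15540 and 3266 in dor control. Their raised differences were -6.58 and -6.57. In both, the control array of replicate 1 was several fold brighter than that of replicate 2.

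EXPA8 (AT2G40610), an expansin that loosens cell walls during growth, read 48.2 and 8.2 in dor drought and 2665 and 849 in dor control. Its raised difference was -4.33. Its adjusted p was 0.0499, just inside the threshold, and its call was lost in 13 of 21 other settings. THI2.2 (AT5G36910), a thionin, which is a small antimicrobial peptide, read 7.8 and 19.6 in dor drought and 1244 and 532 in dor control (raised difference -3.44, adjusted p = 0.0443). CSLA03 (AT1G23480), of the cellulose synthase-like A family that makes mannan backbones, read 2.0 and 4.8 in dor drought and 199 and 170 in dor control. With raised signals its difference was -1.30, since its control signals were low as well. IQD22 (AT4G23060), of a calmodulin-binding family, read 8.4 and 10.7 in dor drought and 196 and 232 in dor control, with a raised difference of -1.51. The calls of CSLA03 and IQD22 were also lost in 13 of the 21 settings, and that of THI2.2 in 12.

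AT2G10940 read 21.4 and 9.3 in dor drought and 12892 and 1147 in dor control (raised difference -5.69, adjusted p = 0.0225). AT1G06830 read 8.1 and 11.5 in dor drought and 6175 and 1826 in dor control, and AT1G22690 read 11.6 and 26.2 in dor drought and 7167 and 1571 in dor control. Both had a raised difference of -5.49 and an adjusted p of 0.0205. AT5G22580 read 12.7 and 11.2 in dor drought and 2833 and 1264 in dor control, a raised difference of -4.66 (adjusted p = 0.0193). All 4 of these loci ended at background on both drought arrays.

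A further set of falls stayed measurable after drought. AT2G41090 read 770 and 1300 in dor drought and 25299 and 27834 in dor control, a fall of 4.73 ± 0.66 on the log2 scale (adjusted p = 0.0272). AT3G22240 read 1003 and 1909 in dor drought and 39593 and 34720 in dor control, with an adjusted p of 0.0225. AT1G49750 read 121 and 366 in dor drought and 7430 and 6703 in dor control (-5.07 ± 0.70). For these 3 loci the 2 control arrays lay close together, while the drought signal was lower in replicate 1. The replicates gave -5.04 and -4.42 for AT2G41090, -5.30 and -4.18 for AT3G22240, and -5.94 and -4.20 for AT1G49750. AT1G32470 read 279 and 649 in dor drought and 14908 and 4752 in dor control (adjusted p = 0.0485), and its differences of -5.74 and -2.87 show the wider response of replicate 1.

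**Figure D2:**
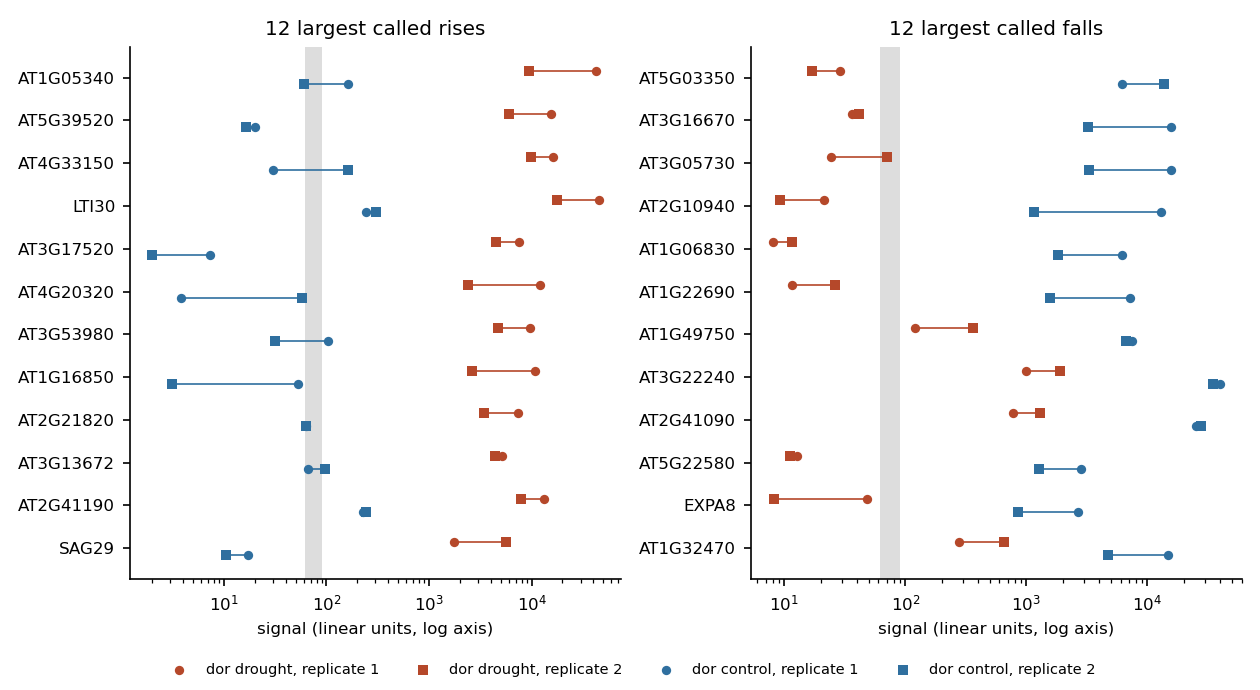
Signal on each dor array for the 12 called rises (left panel) and 12 called falls (right panel) with the largest raised differences among probe sets of 1 named gene; circles are replicate 1 and squares replicate 2, and the grey band is the range of the 40th percentile over the dor arrays. Drought and control arrays do not overlap for these 24 genes, and for many of them one condition lies at or under the band.

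Some genes with large differences in both replicates missed the threshold. HIS1-3 (AT2G18050), a histone H1 variant that drought is known to induce, read 8729 and 5668 in dor drought and 8.5 and 77.9 in dor control (8.09 ± 1.67, adjusted p = 0.0870, raised difference 6.57). AT1G66100 read 12.2 and 440 in dor drought and 30494 and 20043 in dor control (-8.40 ± 1.43, adjusted p = 0.0516, raised difference -7.23). PDF1.2 (AT5G44420), a defensin gene used as a marker of jasmonate and ethylene signalling, read 74.5 and 127 in dor drought and 7140 and 14082 in dor control. Its differences were -6.58 and -6.80 in the 2 replicates (adjusted p = 0.0960). Near-identical defensin copies may share its probes.

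Gene lists for drought, photosynthesis and growth were then read member by member, with 109 tested members in all. Of these 6 were called, against the 0.567% of all probe sets given above. The lists were chosen with earlier results of these data known, so setting these shares side by side is not a test of enrichment. The groups of dor arrays did not overlap for 26.5% of all probe sets in the higher direction and 22.9% in the lower, so a count of such members is read against these shares.

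Of the 14 tested dehydrin, LEA and related genes (of 49 on the list), 3 rose, 0 fell and 13 were positive. The median difference was 6.04, at 5.89 in replicate 1 and 5.53 in replicate 2, and 4.61 with raised signals, beside 0.17 over all tested probe sets. Besides the 3 called members, COR47, a dehydrin, read 30059 and 22750 in dor drought and 663 and 1163 in dor control (4.90 ± 0.95, adjusted p = 0.0769). COR15A, a chloroplast protein that stabilises membranes in cold and drought, read 35583 and 22806 in dor drought and 3274 and 615 in dor control (adjusted p = 0.140). LEA4-5 read 9934 and 3728 in dor drought and 161 and 63.1 in dor control (adjusted p = 0.0982). The negative member was HVA22C, with 95.9 and 164 in dor drought and 1799 and 331 in dor control (-2.62, adjusted p = 0.241). In all 10 members were positive without a call, and AT3G17520, AT1G16850, LEA18 and AT3G02480 had a dor control signal of 3.1 or less in replicate 2.

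Few regulators of the ABA pathway could be read. The ABA receptors, PP2C phosphatases and SnRK2 kinases had 0 named probe sets of 27 loci. Of 3 ABA metabolism genes UGT71B6, which attaches glucose to ABA, read 838 and 202 in dor drought and 19.4 and 74.8 in dor control (adjusted p = 0.219). BGLU33, a beta-glucosidase that frees ABA from its glucose ester, read 176 and 683 in dor drought and 293 and 1433 in dor control. UGT71C5, another ABA glucosyltransferase, read 491 and 291 in dor drought and 339 and 401 in dor control. Both pairs overlapped. Among 3 transcription factors limma called 0, and 1 had an unadjusted p under 0.05. The zinc finger repressor STZ read 7859 and 3036 in dor drought and 414 and 749 in dor control (adjusted p = 0.189). BZIP53 read 8598 and 5741 in dor drought and 4280 and 2585 in dor control, and BZIP60 overlapped, with 3056 and 1520 in dor drought and 1850 and 2024 in dor control. AT5G38710, the 1 tested locus of the proline, raffinose and starch list, read 597 and 424 in dor drought and 35.8 and 114 in dor control (adjusted p = 0.146).

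The tested members of the photosynthesis lists of the nucleus were lower in both replicates without a call. Of the 39 called falls 20 stand for 1 named gene, and the others could not be placed on a list. The named falls were placed by these lists only, which need not hold every gene of photosynthesis or photorespiration. The list of photosystem and antenna genes had 8 tested members of 52, all of them negative, at a median of -2.96 in replicate 1 and -0.999 in replicate 2. limma called 0, and 8 had an unadjusted p under 0.05, against 15.7% of all probe sets. LHCB4.2, an antenna protein of photosystem II, read 5716 and 14819 in dor drought and 53133 and 28473 in dor control (-2.08 ± 0.68, adjusted p = 0.209). PSAE-1, a subunit of photosystem I, read 10845 and 13021 in dor drought and 42122 and 26090 in dor control. LHCB4.3, a rarer antenna form, had the most negative difference of the list, with 150 and 503 in dor drought and 6092 and 2495 in dor control (-3.83, adjusted p = 0.144). The drought array of replicate 1 was the lowest of the 4 dor arrays for all 8, against 31.0% of all tested probe sets.

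The 6 tested Calvin cycle and photorespiration genes were all negative too, with a median of -2.14, 0 calls in limma and 5 with an unadjusted p under 0.05. RCA, the activase of Rubisco, read 9383 and 26561 in dor drought and 31029 and 35723 in dor control (-1.08, adjusted p = 0.414). HPR, hydroxypyruvate reductase of the photorespiratory cycle, read 3117 and 14133 in dor drought and 22320 and 20342 in dor control. SBPASE, which regenerates the CO2 acceptor, read 687 and 4807 in dor drought and 18823 and 10494 in dor control. The replicate 1 difference was larger than that of replicate 2 for all 6, at medians of -3.39 and -1.02.

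All 8 chlorophyll and carotenoid synthesis genes were negative, with a median of -1.55, 0 calls in limma and 4 with an unadjusted p under 0.05. CHLM, the magnesium-protoporphyrin methyltransferase, read 395 and 912 in dor drought and 11665 and 4641 in dor control (-3.62 ± 0.71, adjusted p = 0.0793). HEMB1, an earlier enzyme of the pathway, read 2229 and 909 in dor drought and 4958 and 2004 in dor control, with nearly equal differences in the 2 replicates, -1.15 and -1.14. A list of 4 antioxidant genes had 0 calls and 2 with an unadjusted p under 0.05. TAPX, the thylakoid ascorbate peroxidase, read 142 and 312 in dor drought and 3734 and 1012 in dor control. AT3G11630, on the same list, read 470 and 1578 in dor drought and 22992 and 8773 in dor control (-4.04, adjusted p = 0.0698). GR1, a glutathione reductase, overlapped between the groups, with 3716 and 3313 in dor drought and 1956 and 5743 in dor control.

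Genes of the plastid genome had smaller differences. Of 69 tested, limma called 0, 8 had an unadjusted p under 0.05 and 61 were negative, with a median of -0.83, at -1.08 in replicate 1 and -0.42 in replicate 2. Their geometric mean signal was 1149 and 3276 in dor drought and 2593 and 4464 in dor control. The levels of the 2 dor groups overlapped, since drought in replicate 2 exceeded control in replicate 1. Both dor arrays of replicate 2 lay above both of replicate 1. atpB, a subunit of the ATP synthase, read 24271 and 31340 in dor drought and 38057 and 36777 in dor control.

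Growth genes were mostly negative as well. Of 16 tested expansins and xyloglucan enzymes, which remodel the primary cell wall, EXPA8 fell, 0 rose and 14 were negative, with a median of -2.02, or -1.01 with raised signals. All 6 alpha-expansins were negative and without overlap of the dor groups. EXPA16 read 54.8 and 52.4 in dor drought and 800 and 248 in dor control (adjusted p = 0.162). The 2 positive members were the expansin-like genes EXLB1, with 7793 and 8001 in dor drought and 2648 and 516 in dor control, and EXLA1, with 1462 and 343 in dor drought and 559 and 59.0 in dor control. Neither was called. The 4 beta-tubulin genes were all negative, with a median of -1.22. Of 15 TBL genes, a family that includes acetyltransferases of wall polysaccharides, 11 were negative, and TBL38 was the largest exception with 5578 and 1538 in dor drought and 453 and 236 in dor control.

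Autophagy genes lay on the other side of 0. All 13 tested members were positive with a median of 1.32, at 1.90 in replicate 1 and 0.70 in replicate 2, with 0 calls in limma and 5 with an unadjusted p under 0.05. ATG8 proteins, which coat the forming autophagosome, made up most of the list. ATG8F read 10974 and 9121 in dor drought and 4596 and 6018 in dor control (0.93 ± 0.53, adjusted p = 0.437). APG8H read 9574 and 7832 in dor drought and 3558 and 4938 in dor control. ATG8H had the largest difference, with 3411 and 666 in dor drought and 272 and 228 in dor control (2.60, adjusted p = 0.189). The groups did not overlap for 10 of the 13. VPS genes, which sort proteins to the vacuole, were positive in 6 of 8 with a median of 1.17.

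Of 7 senescence genes SAG29 rose and 0 fell. All 7 group means were positive, but 2 reversed between replicates. The median was 2.91 in replicate 1 and 0.23 in replicate 2. WRKY53, a regulator of leaf ageing, read 1156 and 400 in dor drought and 183 and 755 in dor control. WRKY6 read 630 and 156 in dor drought and 83.7 and 142 in dor control. IVD, which breaks down branched-chain amino acids, read 4276 and 1234 in dor drought and 115 and 463 in dor control (adjusted p = 0.189).

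**Figure D3:**
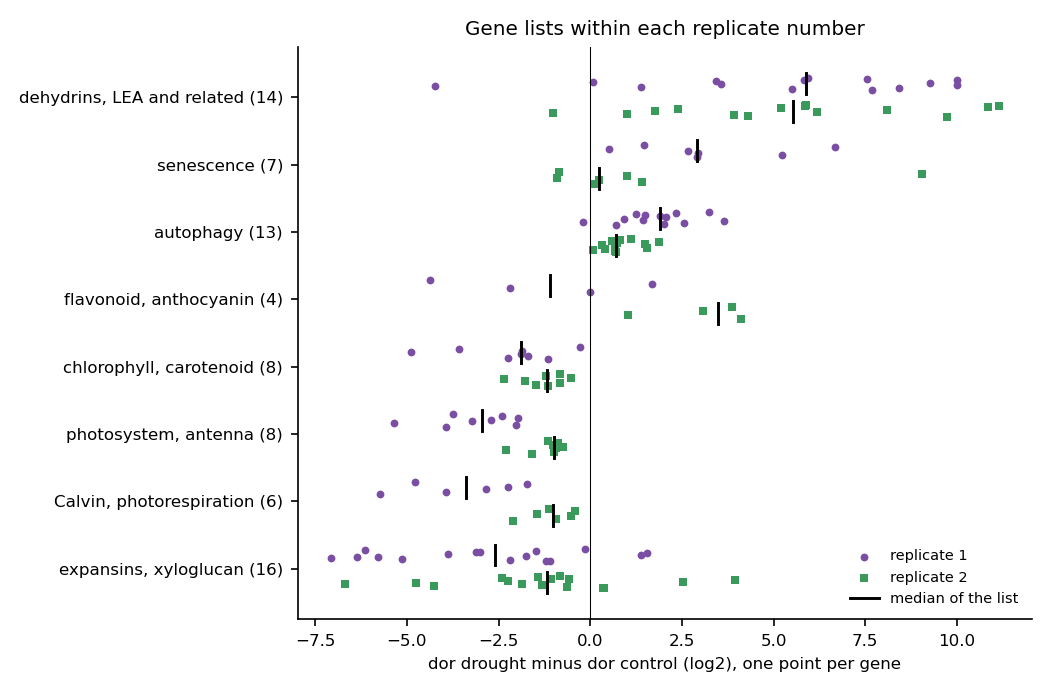
Log2 difference of dor drought minus dor control in replicate 1 (circles) and replicate 2 (squares) for the tested members of 8 gene lists, with the number of members in brackets and a bar at each median. Photosystem and Calvin cycle genes are negative in both replicates with larger values in replicate 1, and the flavonoid list is the one whose medians lie on opposite sides of 0, at -1.10 and 3.48.

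Anthocyanin genes differed mostly on 1 array. DFR, which makes the leucoanthocyanidins, read 53.8 and 6822 in dor drought and 16.6 and 805 in dor control. UF3GT, an anthocyanin glycosyltransferase, read 3.1 and 7852 in dor drought and 64.0 and 537 in dor control, and AT4G14090, on the same list, read 40.8 and 7264 in dor drought and 40.9 and 419 in dor control. In each of these the drought array of replicate 2 was the brightest of all 4 and the arrays of replicate 1 were at background, so the 2 dor groups overlapped. UGT78D2, which acts on flavonols and anthocyanins, read 376 and 2391 in dor drought and 1723 and 1168 in dor control. The median of the 4 changed sign in 3 of 21 other settings. GI, a clock gene whose transcript cycles through the day, read 141 and 1754 in dor drought and 128 and 192 in dor control.

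The remaining lists had at most 3 tested members. Of 3 glucosinolate genes limma called 0, and 0 had an unadjusted p under 0.05. BCAT4, an aminotransferase at the entry of methionine-derived glucosinolates, read 415 and 7558 in dor drought and 5530 and 9856 in dor control. UGT74B1, which glucosylates their precursors, read 473 and 1152 in dor drought and 1152 and 1898 in dor control. Of 3 iron deficiency genes, AT1G47400 read 10.8 and 23.5 in dor drought and 3633 and 644 in dor control (-6.59 ± 1.15, adjusted p = 0.0552). Both drought signals were under the percentile, and its raised difference was -4.36. PYE, a transcription factor of iron homeostasis, overlapped between the groups, with 312 and 291 in dor drought and 241 and 433 in dor control. AT5G37670, on the heat shock list, read 742 and 436 in dor drought and 57.9 and 159 in dor control (adjusted p = 0.172). AT2G29500, on the same list, overlapped, with 180 and 91.2 in dor drought and 61.8 and 103 in dor control.

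WES1, which conjugates auxin to amino acids, read 1059 and 131 in dor drought and 77.8 and 128 in dor control. Its difference of 3.77 was held by replicate 1, beside 0.03 in replicate 2. IAA29, an auxin response repressor, read 19.2 and 61.4 in dor drought and 155 and 220 in dor control. The cell division genes AUR1, a kinase of mitosis, and PRL, a subunit of the replicative helicase, had low signals, with AUR1 at 78.2 and 93.1 in dor drought and 113 and 134 in dor control, and PRL at 51 and 39.9 in dor drought and 135 and 149 in dor control. SWEET11, a sucrose exporter of the vasculature, read 7769 and 8797 in dor drought and 15196 and 7530 in dor control, and THI2.1, a second thionin, read 42.5 and 393 in dor drought and 35.5 and 101 in dor control. Among families sharing a symbol, the GSTU glutathione transferases were negative in 5 of 7 with a median of -2.49. GSTU20 read 47.8 and 1366 in dor drought and 4424 and 7543 in dor control.

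Some genes moved in opposite directions in the 2 replicates. A raised difference of at least 1 log2 unit upward in replicate 1 and downward in replicate 2 was found for 229 probe sets (1.48%), and the reverse for 64. The examples were chosen after their values were seen, as the 6 named genes of each kind with the largest smaller value. AT3G13610, for which the gene table gives the synonym F6'H1, read 483 and 37.3 in dor drought and 23.5 and 554 in dor control, so the replicates gave 4.36 and -3.89, or 2.91 and -2.61 with raised signals. AT4G16260 read 782 and 46.6 in dor drought and 48.6 and 762 in dor control. AT2G18690 read 6765 and 343 in dor drought and 405 and 2039 in dor control. In these genes drought in replicate 1 and control in replicate 2 were the high arrays. The mean difference was 0.23 for AT3G13610, -0.011 for AT4G16260 and 0.75 for AT2G18690. Of the reverse kind were AOP1, a dioxygenase gene of the glucosinolate locus, with 51.5 and 373 in dor drought and 375 and 110 in dor control, and GIS, a zinc finger gene of trichome initiation, with 94.9 and 1042 in dor drought and 467 and 374 in dor control.

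**Figure D4:**
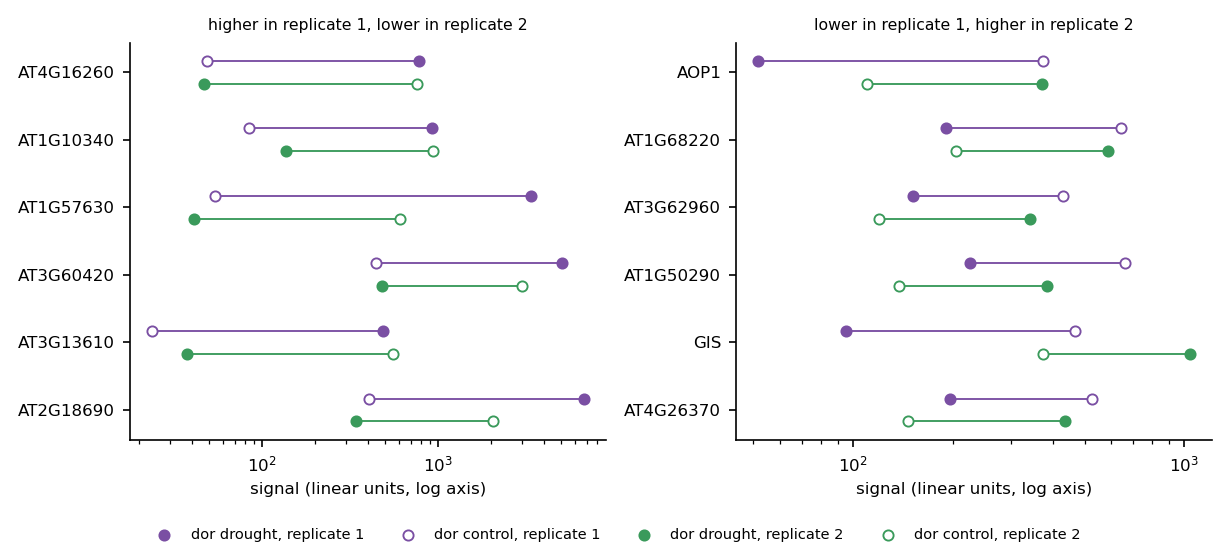
Signal on the dor drought (filled) and dor control (open) arrays of replicate 1 and replicate 2 for the 12 named genes with the largest opposite raised differences, chosen after their values were seen. In the left panel drought exceeds control in replicate 1 and lies below it in replicate 2, and in the right panel the order is turned.

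The response was last set beside that of wild type. The difference between the 2 responses gave 0 calls in limma (0% of those tested). An unadjusted p under 0.05 was found for 185 probe sets (1.19%). That is a smaller share than the 0.05 such p values would give with no difference at all. The fit counted deviations shared by dor and wild type arrays of the same treatment and number as error. With those arrays linked by a random effect 1079 probe sets had such a p, and with a fixed effect 885. Both settings gave 0 calls. The lack of calls therefore does not show that the responses were alike. All adjusted p values were close to 1. Wild type had the sign of dor for each of the 88 called probe sets, against 12270 of 15523 over all tested. The difference was larger in dor for 44 of the 49 rises and 39 of the 39 falls, against 8916 of 15523 over all tested, but these probe sets were chosen on their dor values. Both dor drought arrays lay above both wild type drought arrays for 45 of the 49 rises (15.1% of all tested). They lay below both for 35 of the 39 falls (15.1% of all tested). The calls were made on these same dor drought signals, so setting these counts beside all tested is not a test. The watered plants differed as well: both dor control arrays lay above both wild type control arrays for 19 of the 49 rises and below both for 8, against 7.57% and 7.47% of all tested. Among the 39 falls, 2 lay above and 2 below.

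For AT5G39520 wild type drought read 2168 and 1617 and wild type control 49.1 and 98.5, so the dor response exceeded the wild type one by 4.31 with a 95% interval of 2.15 to 6.46. For LTI30 wild type drought read 2819 and 3065 and wild type control 200 and 671, and the excess in dor was 3.69 (1.34 to 6.04). For AT5G03350 the difference of responses was -3.60 (-5.82 to -1.38), and for AT1G06830 -5.77 (-9.18 to -2.35), where wild type drought read 452 and 477. For SAG29 the responses differed by -0.73 with an interval of -4.32 to 2.85, and for AT3G16670 by -0.66 (-4.01 to 2.7). These intervals are not adjusted for the number of probe sets. The genes were chosen on their dor values, which these differences also use. The differences of all but LTI30 rest in part on signals under the 40th percentile. The raised differences in dor and wild type were 7.04 and 4.61 for AT5G39520, -6.95 and -5.10 for AT5G03350, and -5.49 and -2.68 for AT1G06830. For SAG29 they were 5.41 and 4.72, and for AT3G16670 -6.58 and -6.34. The photosystem list had a median of -1.90 in dor and -0.70 in wild type, the Calvin list -2.14 in dor and -0.59 in wild type, and the plastid genes -0.83 in dor and -0.017 in wild type. Autophagy stood at 1.32 in dor and 1.02 in wild type. The median was nearer 0 in dor for chlorophyll and carotenoid synthesis, at -1.55 in dor and -1.88 in wild type, and for senescence, at 1.52 in dor and 1.91 in wild type. These list differences were not tested.

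**Figure D5:**
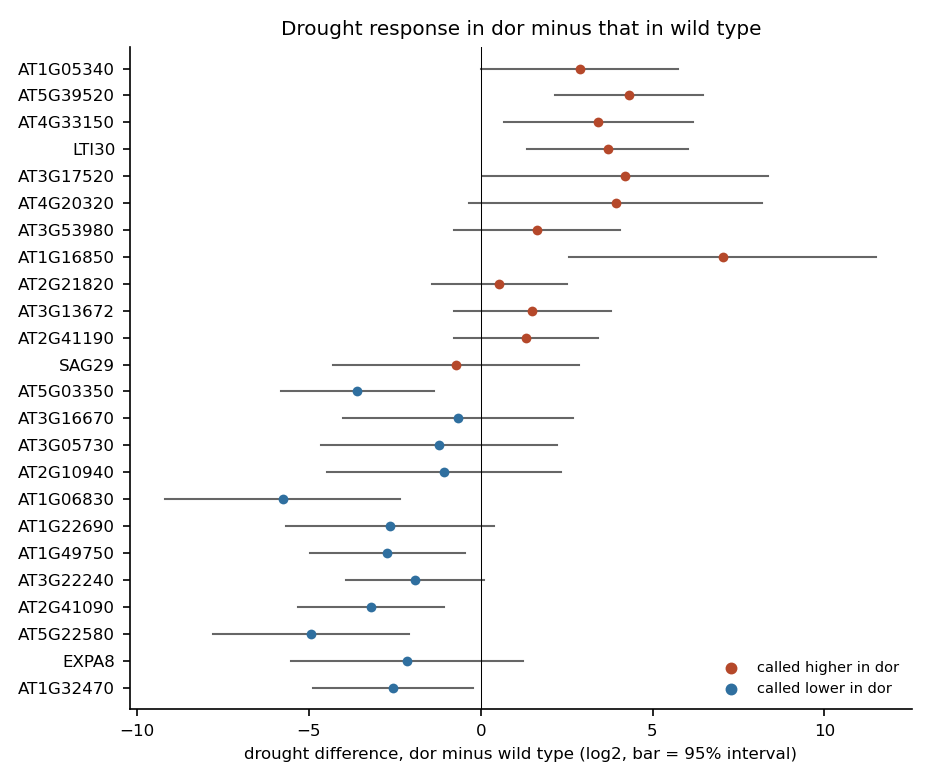
Drought difference in dor minus that in wild type (log2) for the 24 called named genes with the largest raised differences (12 rises and 12 falls), with 95% intervals from the limma fit that are not adjusted for the number of probe sets; 0 of these differences passed the adjusted threshold. AT5G39520 at 4.31 and AT1G06830 at -5.77 have intervals clear of 0, and those of SAG29 and AT3G16670 span it. The genes were chosen on dor values that these differences also use, and the signals drawn here were not raised.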

How the data were processed

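The intensity values deposited by the authors are 1 linear signal per probe set and array, made with GCOS and MAS5, per the submitters' processing notes. The mean after trimming the extremes lies at 500 on every array. Signals under 1 were set to 1 and log2 was taken. A probe set was tested where at least 2 of 8 arrays reached the 40th percentile of their array, leaving out 64 control probe sets, which gave 15523. Names came from a platform table and a RefSeq gene table, and 13436 of 22810 probe sets matched 1 gene. The genome build is not given in the sources used here, and no coordinates are printed. limma 3.58.1 in R 4.3.3 fitted 4 group means with an intensity trend and Benjamini-Hochberg adjustment, two-sided, with 4 residual degrees of freedom. It was tested on simulated data.

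Named genes were the 12 largest called rises and falls by raised difference, up to 3 called or otherwise 2 of the brightest members per list, and the 4 per direction with the largest smaller within-replicate difference. Others were taken after their values were seen. Where a gene had several probe sets the brightest was used. The members and lists were chosen with earlier results of these data known. Same-numbered dor arrays deviated with r = -0.036, so numbers were not treated as pairs. Across genotypes, limma estimated a correlation of 0.659 between dor and wild type arrays of the same treatment and number. The main fit did not model this correlation and treated all arrays as independent. Alternatives were other scalings, filters, blocks and leaving out arrays. pandas 2.3.3 and matplotlib 3.10.9 in Python 3.11.15 made tables and figures.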

Additional observations from a re-analysis of the deposited data

Results flagged for a closer look

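For 5 genes of the text both dor pairs of arrays differed one way under drought and both wild type pairs the opposite way. Some of these differences were close to 0. In dor replicate 1 COR15B differed by 0.083 and GI by 0.145, and in wild type replicate 2 SAPX differed by -0.032. The values are the drought difference in dor minus that in wild type. They were 4.81 for COR15A (unadjusted p = 0.0144 in limma) and 4.3 for COR15B (unadjusted p = 0.0174). For EXLA1 the value was 3.88 (unadjusted p = 0.0590), for GI 2.58 (unadjusted p = 0.312) and for SAPX, an ascorbate peroxidase, 1.63 (unadjusted p = 0.207). The adjusted p was close to 1 for all 5, so none of these differences passed the test over all probe sets. COR15A read 1613 and 8004 in wild type drought and 2229 and 11241 in wild type control, whereas its signal was higher under drought in both dor pairs. COR15B read 760 and 1970 in dor drought and 718 and 372 in dor control, and 236 and 556 in wild type drought and 1045 and 8674 in wild type control. Groups of 2 arrays are too small for a check of single outlying arrays.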

How the results depend on the processing

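The count of 88 calls in dor rested on few arrays. It was 153 after quantile normalization (76 higher, 77 lower), 167 with signals raised to the 40th percentile, 35 with the extraction wording as a block, and 2918 with a replicate block within condition, whose error leaves out deviations that both genotypes share. It was 0 without the controls of replicate 1, where 1209 probe sets had an unadjusted p under 0.05, and 0 to 108 with 1 array left out. Leaving out replicate 1 gave 0 for dor drought, 5 for dor control and 57 for wild type drought, and leaving out wild type drought of replicate 2 gave 56. Without dor drought replicate 2 the 77 calls were 23 higher and 54 lower, and 38 of them were among the 88. The replicate block gave 96 calls, 74 of them shared. The difference of responses had 0 calls in every setting run, with 95 to 1079 probe sets at an unadjusted p under 0.05. The median over all tested probe sets was 0.17, and 0.049 after quantile normalization and 0.056 after median centring. None of the 46 called named genes changed sign. Of genes without a call, UGT71C5 reversed after quantile normalization (-0.22), median centring (-0.075) and without the controls of replicate 1 (-0.084), GR1 after median centring (-0.046) and without those controls (-0.71), and SWEET11 without those controls (0.13). With 1 array left out the sign changed within the ranges -1.68 to 5.79 (AT4G14090), -4.15 to 0.034 (BCAT4), -2.05 to 0.24 (BGLU33), -0.35 to 0.66 (BZIP60), -0.35 to 0.0068 (CHX20), -0.96 to 0.14 (FMA), -0.15 to 3.48 (GI), -0.71 to 0.84 (GR1), -0.52 to 0.33 (PYE), -0.88 to 0.13 (SWEET11), -0.50 to 2.71 (THI2.1), -0.34 to 0.41 (UGT71C5) and -1.92 to 0.75 (UGT78D2). The cause was not tested. Among 15 list medians those of the ABA metabolism and flavonoid lists changed sign. Signals under the 40th percentile limit the size of the largest changes.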
